A study of Mus musculus with 19 samples.

Results

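The miR-204 hairpin was followed through 19 libraries of Ago2-bound microRNAs (miRNAs) from mouse brain. Its members are the 2 names miR-204 and miR-204* of the 528 miRNA names in the deposited table, chosen by name alone: miR-204 is the arm usually kept as the mature miRNA (the guide), and miR-204* is the opposite arm. miRNAs are short RNAs cut in pairs from the 2 arms of a hairpin, and the arm held by an Argonaute protein pairs through its seed (bases 2 to 8) with target messenger RNAs. miR-204 lies in an intron of Trpm3, which encodes a cation channel, and it is known for high levels in the choroid plexus, the retinal pigment epithelium and other epithelia. Its closest relative is miR-211, in an intron of Trpm1. In bulk material like this, fewer cells of a type and less RNA per cell cannot be told apart.

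The mature arms and the hairpin are shown because the 2 arms were measured as separate rows and because 1 related miRNA is nearly identical to the guide. The sequences are those of RefSeq (build GRCm38.p6), 5′ to 3′, with each seed in capitals in the mature forms and both mature arms in capitals in the hairpin.
mmu-miR-204-5p: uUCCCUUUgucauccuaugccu
mmu-miR-204-3p: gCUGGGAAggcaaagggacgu
mmu-miR-211-5p: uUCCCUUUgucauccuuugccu
miR-204 hairpin: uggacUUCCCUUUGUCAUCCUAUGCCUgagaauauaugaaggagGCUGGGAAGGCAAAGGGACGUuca

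The guide, here miR-204, is the 5p arm at chr19:22750610-22750631, and miR-204*, matched to the 3p arm, is at chr19:22750649-22750669, both on the plus strand. The hairpin at chr19:22750605-22750672 lies inside Trpm3 (chr19:22139046-22995410, plus strand, GENCODE M21 on GRCm38), and it is intronic in all 18 of the 24 Trpm3 transcripts that span it. The seed UCCCUUU of the guide is shared by miR-211-5p and miR-7670-3p among 1738 RefSeq mature miRNAs, and the seed CUGGGAA of miR-204-3p by miR-7684-5p. The guide and miR-211-5p differ at 1 of 22 positions, A17U, counted from 1 at the 5′ end with the base of miR-204-5p first. miR-211 was not analysed here. The sources used here do not state how many mismatches the mapping allowed, so reads of miR-211-5p within the miR-204 value cannot be told apart.

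All mice were at postnatal day 56, and small RNAs of 19 to 24 nt were recovered from precipitated Ago2. Anti-Ago2 was used on whole Cerebellum (C57BL/6 and black swiss, n = 3 libraries of 1 tissue each) and whole Neocortex (C57BL/6 and BALB/c, n = 3 of 1 tissue). Anti-myc was used where 1 class of neurons carries Myc-tagged Ago2: Purkinje cells of the cerebellum (C57BL/6 and black swiss, n = 3 of 3 pooled tissues), and in the neocortex Camk2a cells, the excitatory neurons (C57BL/6 and BALB/c, n = 3 of 1 tissue), Gad2 cells, the GABAergic neurons (C57BL/6 and 129, n = 3 of 4 pooled tissues), and 2 classes of GABAergic interneurons, parvalbumin (PV) and somatostatin (SST) cells (C57BL/6 and 129, n = 2 each, of 4 pooled tissues). The driver of the tag is not given in the labels beyond the class name. Antibody, strain and pooling therefore differ between whole tissue and most cell classes and cannot be told apart from the cells compared. Depth ran from 1229834 to 14249087 miRNA reads per library, and 3 reads, taken as the floor, equal 0.211 to 2.44 RPM, the reads scaled to a library of 1000000 miRNA reads. All levels are RPM, so each is a share of the Ago2-bound miRNAs and not an amount per cell. Whether replicates came from separate animals is not stated, so p-values reflect the spread among these libraries alone, which may be technical.

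miR-204 spanned more than 2 orders of magnitude over the 7 groups. In Cerebellum its level was 1729.5, 1255.55 and 1429.58 RPM (mean 1471.55 ± 239.7, SD, n = 3), from 2127, 4134 and 2571 reads. In SST cells it was 129.03 and 126.542 RPM (127.8 ± 1.76, n = 2), and in Camk2a cells 72.655, 50.372 and 78.883 RPM (67.3 ± 14.99, n = 3). Whole tissue and tagged cells are thus mixed in the upper part of the order. Neocortex had 57.235, 50.266 and 67.602 RPM (58.4 ± 8.72, n = 3) and Gad2 cells 16.352, 25.355 and 18.184 RPM (19.96 ± 4.76, n = 3). The lowest levels were those of Purkinje cells, at 11.148, 9.209 and 4.439 RPM (8.27 ± 3.45, n = 3, from 23, 23 and 15 reads), and of PV cells, at 8.101 and 6.994 RPM (7.55 ± 0.783, n = 2, from 87 and 80 reads). Among all miRNAs of a library, miR-204 ranked 53 to 63 in Cerebellum and 260 to 296 in Purkinje and PV cells. Neighbours in this order did not overlap except Camk2a cells with Neocortex and Purkinje with PV cells. How many other miRNAs separate the groups as fully was not counted, here or for miR-204*.

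miR-204* followed another order. It was 84.564, 108.73 and 69.505 RPM in Cerebellum (87.6 ± 19.8, n = 3) and 30.712, 29.769 and 25.189 RPM in Neocortex (28.6 ± 2.95, n = 3). Both whole tissues therefore stood above every class of tagged neurons. In Camk2a cells it was 5.917, 6.004 and 5.864 RPM (5.93 ± 0.0707, n = 3), in SST cells 3.91 and 6.917 RPM (5.41 ± 2.13, n = 2, 5 and 17 reads), and in Gad2 cells 2.526, 2.293 and 4.009 RPM (2.94 ± 0.931, n = 3). These 3 classes overlapped along the order, Camk2a with SST and SST with Gad2. Purkinje cells had 1.454, 0.801 and 0.296 RPM (0.850 ± 0.581, n = 3), which is 3, 2 and 1 reads, and PV cells 0.279 and 0.262 RPM (0.271 ± 0.0120, n = 2), which is 3 reads in each. Purkinje and PV libraries were thus at or under the floor for miR-204*, and their fitted difference is not read as a fold. Both names differed between the 7 groups in limma (adjusted p = 5.55e-14 for miR-204 and 1.71e-11 for miR-204*), as did 87.2% of the 522 miRNAs tested.

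**Figure D1:**
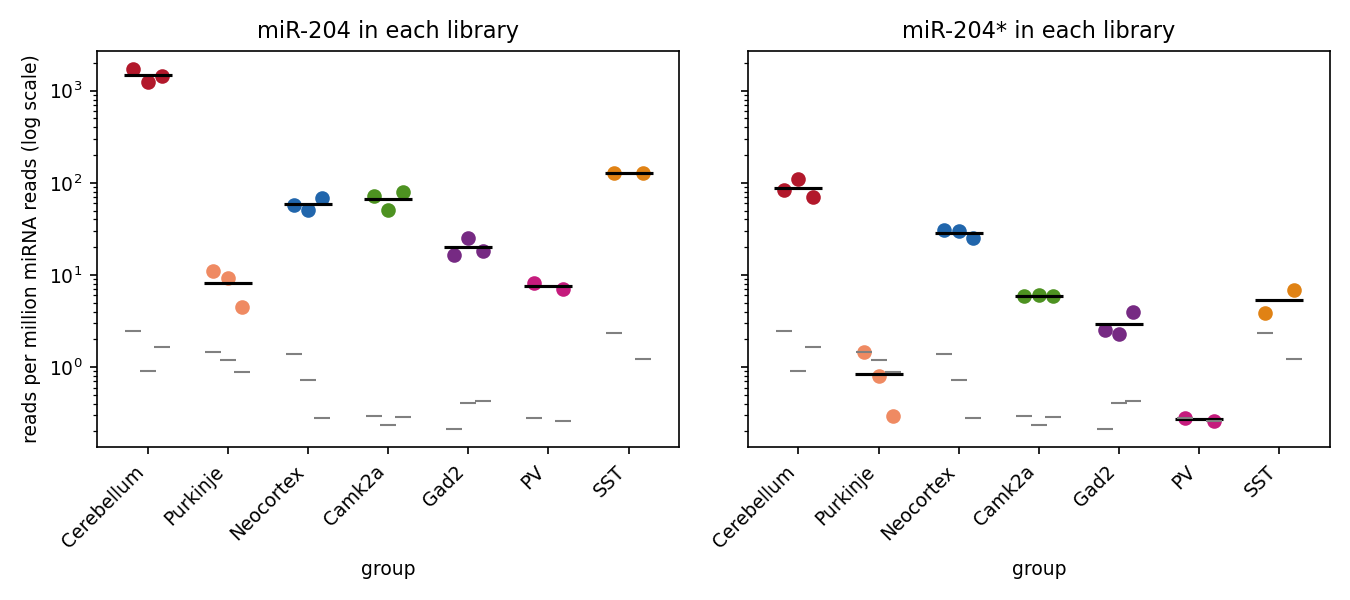
Level of miR-204 (left) and miR-204* (right) in RPM on a log axis, 1 point per library in 7 groups, with the group mean as a black line and the 3-read floor of each library as a grey dash. miR-204 is highest in the 3 Cerebellum libraries (1255.55 to 1729.5 RPM) and SST is the highest of the tagged classes. miR-204* is higher in Cerebellum and Neocortex than in any tagged class and is at or under the floor in Purkinje and PV cells.

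Whole cerebellum was compared with whole neocortex under the same antibody, but strain differed between these tissues and cannot be told apart from region. miR-204 was 25.1-fold higher in Cerebellum (log2 change 4.65 ± 0.29, SE; limma, adjusted p = 3.83e-11). This was the second highest change of the 522 miRNAs, of which 19.5% were called higher and 36% lower at an adjusted p under 0.05, with a median log2 change of -0.40. miR-204* was also higher in Cerebellum, but by 3.02-fold (log2 change 1.59 ± 0.42; limma, adjusted p = 0.00336). The guide arm therefore differed more between the regions than the star arm did, a difference tested with the arm ratio.

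Purkinje cells were then set against the cerebellum that holds them. miR-204 was 187-fold lower in Purkinje cells (log2 change -7.55 ± 0.29; limma, adjusted p = 9.95e-15), the second lowest change of 522 where 37.4% were called lower. miR-204* was lower too (log2 change -6.71 ± 0.42; limma, adjusted p = 2.18e-11). Its pooled reads, 587 of 6320834 in Cerebellum and 6 of 7939573 in Purkinje cells, gave a ratio of 123 with an exact 95% interval of 56.1 to 336 that covers counting error only. Both arms were thus far lower in Purkinje cells than in the whole tissue. Of the 5 neuronal names listed, 4 were called lower and none higher in the same comparison (median log2 change -1.10 against -0.19 over all 522), and of the 3 vascular names all 3 were called lower (median -3.75). A pseudocount of 10 moved the miR-204* change to -5.61 (limma, adjusted p = 2.52e-13).

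In the neocortex the tagged classes did not move together for miR-204. Camk2a cells and whole Neocortex overlapped (log2 change 0.19 ± 0.29; limma, adjusted p = 0.618), with a 95% interval for the fold of 0.751 to 1.73. In this comparison 44.8% of miRNAs were called in either direction. SST cells stood 2.203-fold above Neocortex (log2 change 1.14 ± 0.32; limma, adjusted p = 0.00534), where 31% were called higher. The size of the SST difference depends on scaling, since SST libraries had a median log2 change of 0.13 over all miRNAs, and after TMM scaling miR-204 changed by 0.71 (limma, adjusted p = 0.0419). Gad2 cells were lower than Neocortex by 2.94-fold (log2 change -1.56 ± 0.29; limma, adjusted p = 0.000174; 24.3% called lower), and PV cells by 7.61-fold (log2 change -2.93 ± 0.32; limma, adjusted p = 2.03e-07; 29.3% called lower).

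miR-204* was lower than in Neocortex in every one of these 4 classes. The log2 change was -2.24 ± 0.42 in Camk2a cells (limma, adjusted p = 0.00026; 28% of miRNAs called lower) and -2.43 ± 0.47 in SST cells (limma, adjusted p = 0.000225; 21.5% called lower). It was -3.27 ± 0.42 in Gad2 cells (limma, adjusted p = 2.37e-06). In PV cells it was -6.27 ± 0.47 (limma, adjusted p = 9.06e-10), where the pooled reads were 6 of 22177295 against 460 of 17045788 in Neocortex, a ratio of 99.7 with an exact interval of 45.5 to 273, and a pseudocount of 10 moved the change to -4.54. Camk2a and SST cells thus lay at or above Neocortex for the guide and below it for the star arm. These 4 comparisons share the 3 Neocortex libraries.

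The difference between tagged cells and tissue was itself compared between cerebellum and neocortex. Each test equals the change between the tagged classes less the change of Cerebellum against Neocortex, which was 4.65 for miR-204. Purkinje and PV cells themselves differed by a log2 change of 0.03, so their test restates the difference between the whole tissues. Relative to its tissue, miR-204 was lower in Purkinje cells than in PV cells, the neocortical class with the lowest level, by a log2 difference of -4.62 ± 0.43 (limma, adjusted p = 2.52e-08; 45.8% of miRNAs called in either direction). The same difference with Gad2 cells was -5.99 ± 0.41 (limma, adjusted p = 3.08e-10; 45.8% called). It was -7.74 ± 0.41 with Camk2a cells (limma, adjusted p = 4.41e-12; 47.3% called) and -8.69 ± 0.43 with SST cells (limma, adjusted p = 1.91e-12; 44.6% called). For miR-204* the difference with PV cells missed the threshold (log2 difference -0.45; limma, adjusted p = 0.608).

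Among the neuron classes, PV cells had the lowest mean of miR-204 and SST cells the highest. Neither end was set apart in every fit: PV cells overlapped Purkinje cells, and the call of SST above Camk2a cells was lost after TMM scaling. miR-204 was 16.8-fold lower in PV than in SST cells (log2 change -4.07 ± 0.35; limma, adjusted p = 1.30e-08), the tenth lowest of 522 changes where 25.1% were called lower. After TMM scaling the log2 change was -3.43 (limma, adjusted p = 3.31e-08), and the share of all calls that were higher in PV cells went from 13.8% to 51.7%. miR-204* was also lower in PV cells (log2 change -3.84 ± 0.52; limma, adjusted p = 6.03e-06). Its pooled reads gave a ratio of 21.8 with an exact interval of 8.56 to 65.6, from 22 reads in SST and 6 in PV cells, and a pseudocount of 10 moved the change to -2.29. Both arms thus differed in the same direction between these interneurons.

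Gad2 cells, a class that includes PV and SST cells, had a miR-204 level between those of PV and SST cells. SST cells were 6.49-fold above Gad2 cells (log2 change 2.70 ± 0.32; limma, adjusted p = 5.80e-06), the sixth highest change where 21.6% of miRNAs were called higher. PV cells were 2.58-fold below Gad2 cells (log2 change -1.37 ± 0.32; limma, adjusted p = 0.00312; 14.6% called lower). For miR-204*, the log2 change was 0.84 ± 0.47 in SST against Gad2 cells (limma, adjusted p = 0.197) and -2.996 ± 0.47 in PV against Gad2 cells (limma, adjusted p = 6.10e-05). The latter rests on 3 reads in each PV library, with a ratio of pooled reads of 10.5 and an exact interval of 4.60 to 29.3, and a pseudocount of 10 moved it to -1.61. Gad2 cells were also lower than Camk2a cells for miR-204 (log2 change -1.75 ± 0.29; limma, adjusted p = 6.31e-05; 16.7% called lower), while miR-204* missed the threshold there (log2 change -1.03 ± 0.42; limma, adjusted p = 0.0625) and passed it under several other settings. Purkinje cells were lower than Gad2 cells for miR-204 by 2.53-fold (log2 change -1.34 ± 0.29; limma, adjusted p = 0.000524; 34.5% called lower) and for miR-204* (log2 change -1.85 ± 0.42; limma, adjusted p = 0.000931; -1.11 with a pseudocount of 10).

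The rest of the order was tested for neighbouring groups. Cerebellum exceeded SST cells for miR-204 by 11.4-fold (log2 change 3.51 ± 0.32; limma, adjusted p = 8.56e-09; 25.9% called higher), and after TMM scaling the log2 change was 4.23. SST cells exceeded Camk2a cells by 1.93-fold (log2 change 0.95 ± 0.32; limma, adjusted p = 0.0204), where 32.4% were called higher, but this call was lost after TMM scaling (log2 change 0.30, adjusted p = 0.44) and without Camk2a replicate 2 (adjusted p = 0.092), SST replicate 1 (0.0908) or SST replicate 2 (0.0767). Purkinje and PV cells overlapped for miR-204 (log2 change 0.03 ± 0.32; limma, adjusted p = 0.974; 45.8% called in either direction), with a 95% interval for the fold of 0.641 to 1.63. The lowest pair of groups came from different regions, strains and pools.

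**Figure D2:**
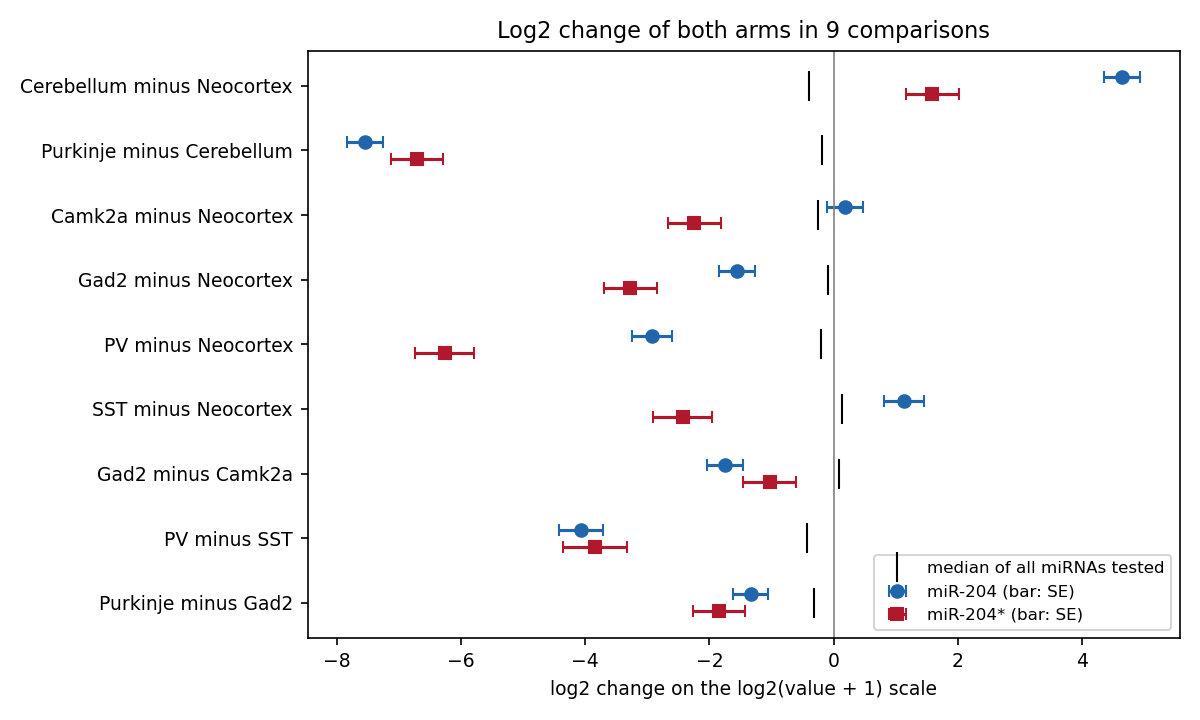
Log2 change of miR-204 (blue circles) and miR-204* (red squares) in 9 comparisons, with SE bars from limma, and the median change of all 522 miRNAs as a black tick. miR-204 lies at 4.65 for Cerebellum against Neocortex and -7.55 for Purkinje cells against Cerebellum, and in the 4 neocortical classes against Neocortex the star arm lies left of the guide.

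The share of the hairpin's reads that fell on the star arm was highest in Neocortex. miR-204* made up 34.9%, 37.2% and 27.1% of the hairpin's reads in the Neocortex libraries (33.1% ± 5.27, SD, n = 3), with 95% Wilson intervals of 28.5 to 42.0, 32.1 to 42.5 and 24.5 to 30.0. Expressed the other way, 1.69 to 2.68 guide reads were counted per star read. In Cerebellum the share was 4.66%, 7.97% and 4.64% (5.76% ± 1.92, n = 3), with intervals of 3.86 to 5.62, 7.21 to 8.80 and 3.91 to 5.497. No Cerebellum library reached the range of the Neocortex libraries. These intervals cover only the counting error of reads within a library. Reads amplified by PCR with no molecular identifiers do not count independent molecules, so the intervals may be too narrow even for that.

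The tagged classes also lay below Neocortex in this share. In Camk2a cells it was 7.53%, 10.7% and 6.92% (8.37% ± 2.001, n = 3; intervals 5.91 to 9.56, 8.61 to 13.1 and 5.44 to 8.77), and in Gad2 cells 13.4%, 8.29% and 18.1% (13.2% ± 4.89, n = 3; intervals 9.83 to 17.97, 5.24 to 12.9 and 12.8 to 24.9). In SST cells it was 2.94% and 5.18% (4.06% ± 1.59, n = 2; intervals 1.26 to 6.70 and 3.26 to 8.14), and in PV cells 3.33% and 3.61% (3.47% ± 0.199, n = 2; intervals 1.14 to 9.35 and 1.24 to 10.1). Every library of the 4 classes lay below every Neocortex library. How many other hairpins separate from Neocortex in this way, here and for Cerebellum, was not counted. Purkinje cells had 11.5%, 8% and 6.25% (8.60% ± 2.69, n = 3; intervals 4.00 to 28.98, 2.22 to 24.97 and 1.11 to 28.3), which rests on 6 star reads of 67. The Purkinje intervals and that of Gad2 replicate 3 overlapped the 24.5 to 30.0 of Neocortex replicate 3. Purkinje cells and Neocortex were not tested against each other for the arm ratio.

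The arm ratio, log2 of minor-arm over major-arm reads with 0.5 added to each, was fitted in limma for 156 hairpins. The minor arm is the one with fewer mean reads over all these libraries, so it was chosen from these same reads. For miR-204 it is the star arm. It was lower in Cerebellum than in Neocortex by 8.31-fold (log2 difference -3.05 ± 0.37; limma, adjusted p = 9.63e-06), the fourth lowest of 156 where 19.9% were called lower. Camk2a cells were 5.45-fold below Neocortex (log2 difference -2.45 ± 0.37; limma, adjusted p = 0.000173; 19.2% called lower), and Gad2 cells 3.32-fold below (log2 difference -1.73 ± 0.37; limma, adjusted p = 0.0053; 9.62% called lower). The differences were wider for PV cells (log2 difference -3.56 ± 0.41; limma, adjusted p = 5.11e-06; 12.8% called lower) and SST cells (log2 difference -3.51 ± 0.41; limma, adjusted p = 7.67e-06; 19.2% called lower), each the third lowest in its comparison. The change of arm ratio from tissue to tagged cells was also compared between the regions. Log2 differences were 2.69 to 4.52 for Purkinje cells less each neocortical class (limma, adjusted p = 0.00206 for Gad2 cells and lower for the others). In these tests 12.2%, 8.33%, 12.2% and 10.3% of hairpins were called higher for Camk2a, Gad2, PV and SST cells. Each test equals the change between the tagged classes less the -3.05 of Cerebellum against Neocortex. Purkinje and Gad2 cells themselves differed by -0.36 (limma, adjusted p = 0.473), so their test mostly restates the difference between the whole tissues. Neocortex thus differed in arm ratio from whole Cerebellum, taken with the same antibody but of different strain, and from all 4 neocortical classes.

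In the 4 comparisons tested without Neocortex, the arm ratio did not pass the threshold, and other pairs of groups were not tested. The log2 difference was 0.96 ± 0.37 for Purkinje cells against Cerebellum (limma, adjusted p = 0.0605; 29.5% of hairpins called in either direction, 95% interval 0.18 to 1.74 without adjustment), 0.71 ± 0.37 for Gad2 against Camk2a cells (limma, adjusted p = 0.291), -0.36 ± 0.37 for Purkinje against Gad2 cells (limma, adjusted p = 0.473) and -0.05 ± 0.45 for PV against SST cells (limma, adjusted p = 0.979). The last has an interval of -1.01 to 0.91. PV and SST cells therefore differed 16.8-fold in the guide with no detectable difference in arm ratio, which rests on 6 star reads in PV and 22 in SST cells. Of the 156 hairpins, 3 were called higher and 1 lower in PV against SST cells, and 0 in Gad2 against Camk2a cells. In Purkinje against Gad2 cells 16 were called higher and 18 lower. Over the pooled reads of each group, the star share of the miR-204 hairpin ranked 24 of 156 minor-arm shares in Neocortex and 57 to 94 in the other 6 groups. The median minor-arm share over all 156 hairpins was 5.65% in Neocortex and 4.14% to 5.97% over all 7 groups.

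**Figure D3:**
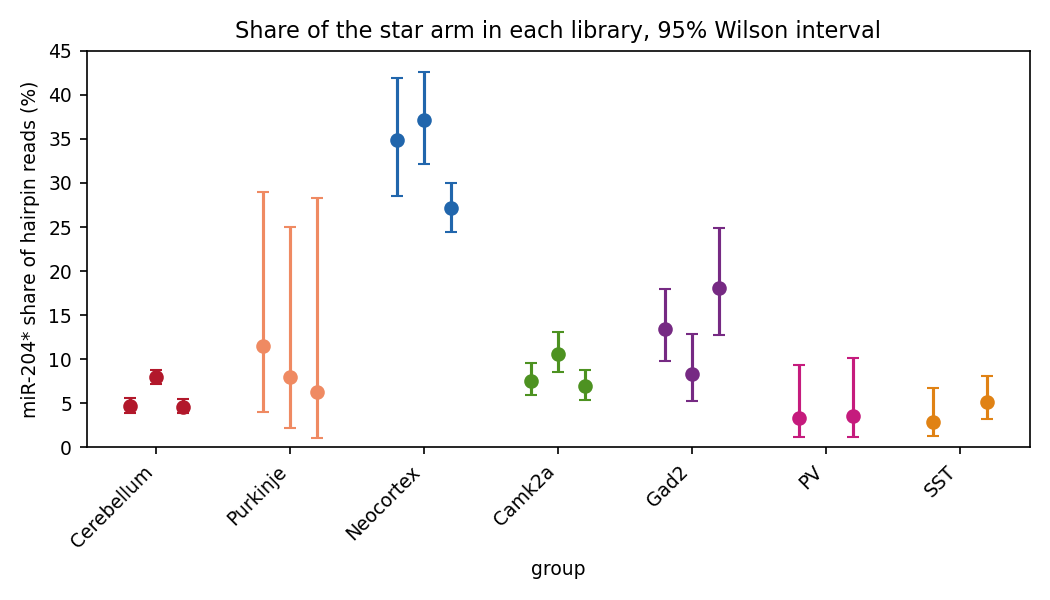
Share of miR-204* in the reads of the miR-204 hairpin, in percent, 1 point per library in 7 groups, with 95% Wilson intervals for counting error. The 3 Neocortex libraries lie between 27.1% and 37.2%, above all others, and the intervals of the Purkinje libraries are wide because they hold 16 to 26 hairpin reads each.

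With both arms added, the hairpin's level was 1559 ± 231 RPM in Cerebellum, 133.2 ± 0.367 in SST cells, 86.9 ± 6.44 in Neocortex and 73.2 ± 14.9 in Camk2a cells. It was 22.9 ± 4.43 RPM in Gad2 cells, 9.12 ± 4.01 in Purkinje cells and 7.82 ± 0.795 in PV cells. Adding the arms placed Neocortex above Camk2a cells by mean, the reverse of the guide alone. The mean log levels of the arms had a Pearson correlation of 0.90 over the 7 groups and 0.89 over the 19 libraries, which share depth and scaling.

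Marker miRNAs of other cell types were measured beside the hairpin. Of 11 names listed for choroid plexus and ependyma, 6 were in the table: the 2 members and 4 arms of miR-34b and miR-34c, miRNAs of multiciliated cells. The other 5 were not analysed here. The 4 miR-34 arms summed to 90.6 to 112 RPM in Cerebellum, 5.21 to 6.30 in Purkinje cells, 17.3 to 32.0 in Neocortex and 12.2 to 16.8 in Camk2a cells. They then summed to 71.3 to 101 RPM in Gad2 cells, 110 to 129 in PV cells and 292 to 296 in SST cells. Their sum was therefore highest in SST cells and not in Cerebellum, and most of it there was miR-34c (238 ± 7.54 RPM, SD). Not every arm had this order: miR-34b-3p had its highest mean in Cerebellum (7.59 ± 5.14 RPM, against 2.97 ± 1.33 in SST cells). Both miR-34b-3p and miR-34c* were at 0 in all Purkinje libraries. The table holds no messenger RNAs, so choroid plexus as the source of miR-204 was not tested.

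The miR-34 arms moved with miR-204 in some comparisons and against it in others. In Cerebellum against Neocortex 3 of 4 were called higher and none lower, with a median log2 change of 2.16 against -0.40 over all 522 miRNAs, and in Purkinje cells against Cerebellum all 4 were called lower with a median of -4.26 against -0.19. In PV cells against Neocortex 2 of 4 were called higher and none lower, with a median of 1.66 against -0.21, where 19.3% of all miRNAs were called higher. miR-34c was 6.48-fold higher in PV cells than in Neocortex (log2 change 2.69 ± 0.30; limma, adjusted p = 2.80e-07), where miR-204 was lower. In SST cells miR-34c was 18.1-fold above Neocortex (log2 change 4.18 ± 0.30; limma, adjusted p = 1.16e-09).

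Vascular miRNAs and most blood miRNAs were lower in tagged cells than in whole tissue. The 3 measured vascular names of 6 listed summed to 7841 to 8178 RPM in Neocortex, 5810 to 6312 in Cerebellum and 294.6 to 993 over all tagged classes. In the 5 comparisons of a tagged class with its tissue all 3 were called lower, where 37.4% of all 522 miRNAs were called lower for Purkinje cells and 28%, 24.3%, 29.3% and 21.5% for Camk2a, Gad2, PV and SST cells. The 7 blood and microglia miRNAs summed to 1811 to 4055 RPM in Neocortex and 45.1 to 358 in the tagged neocortical classes, with 6 of 7 called lower in each of the 4 classes, against the same 21.5% to 29.3% of all miRNAs, and miR-486 called higher. miR-451, of red blood cells, was 226-fold lower in Camk2a cells than in Neocortex (log2 change -7.82 ± 0.29; limma, adjusted p = 1.86e-14), and miR-143 was 87.99-fold lower (log2 change -6.46 ± 0.17; limma, adjusted p = 2.33e-17), in the same comparison in which miR-204 changed by 0.19. miR-204* changed by -2.24 there, and miR-126-3p, an endothelial miRNA, by -1.93 (limma, adjusted p = 4.99e-09). The 4 names of the oligodendrocyte list changed by -7.12 to -1.25 there, with miR-338-3p at -1.93 (limma, adjusted p = 1.40e-08). The neuronal names miR-9* and miR-124* changed by -1.13 and -0.97 (limma, adjusted p = 6.19e-07 and 0.000605), and miR-128 by 0.97 (limma, adjusted p = 0.000417). Both miR-9* and miR-124* were called lower in all 5 comparisons of a tagged class with its tissue. The 4 oligodendrocyte miRNAs summed to 2155 to 3401 RPM in Neocortex and 666 to 1219 in the tagged neocortical classes, and all 4 were called lower in each class, against 21.5% to 29.3% of all miRNAs. In Purkinje cells against Cerebellum 1 of 4 was called lower, against 37.4% of all miRNAs. The 5 neuronal names summed to 317962 to 398905 RPM in Neocortex and 239130 to 445537 in the tagged neocortical classes, with at most 1 of 5 called higher and 2 or 3 called lower in each, against the same shares. The part of non-neuronal cells in the higher miR-204* of whole Neocortex was not tested.

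**Figure D4:**
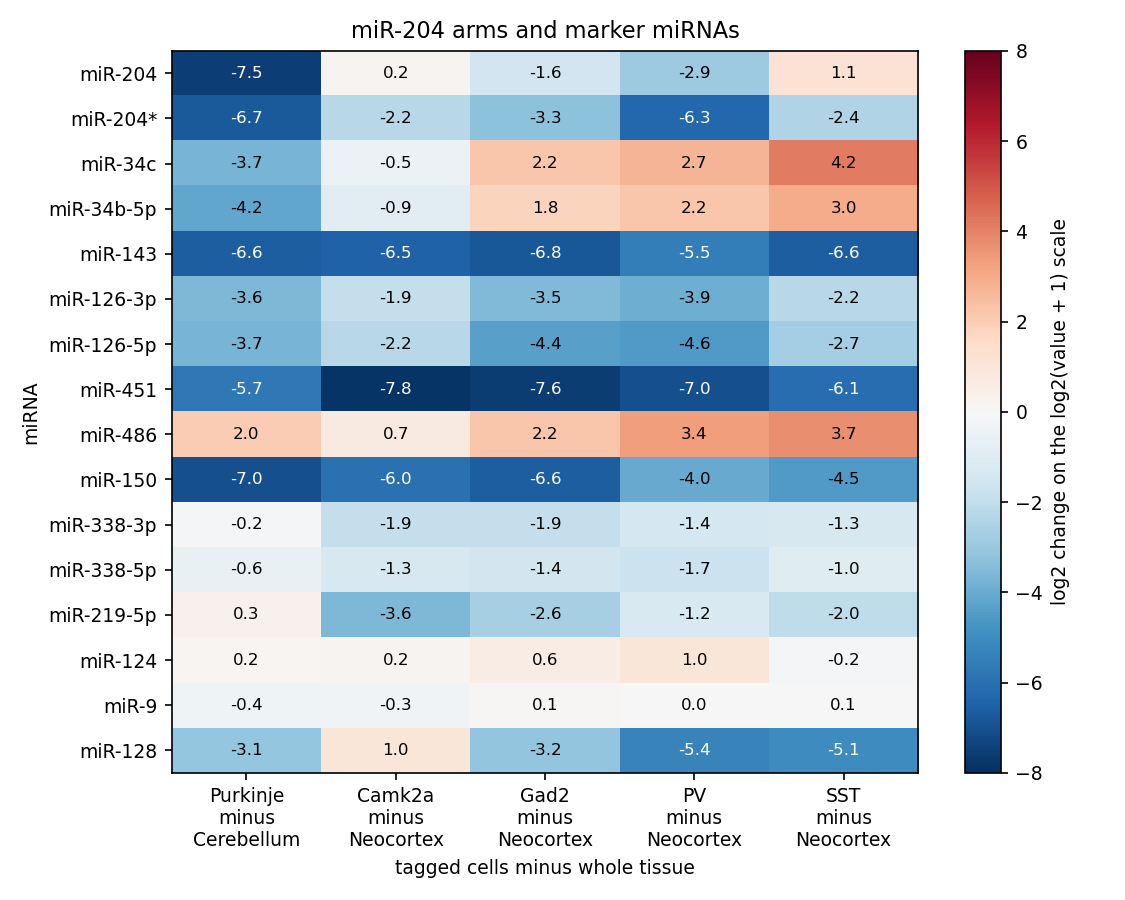
Log2 change of both miR-204 arms and of 14 marker miRNAs (rows) in 5 comparisons of a tagged class with its whole tissue (columns), blue for lower and red for higher in the tagged cells. miR-204* is lower in all 5 columns, as are miR-143, miR-451, miR-150 and both arms of miR-126 and of miR-338, but not miR-486. The miR-338-3p change in Purkinje cells is -0.18 and was not called. The neuronal miR-9* and miR-124*, not drawn, were called lower in all 5 comparisons. miR-204 lies near 0 in Camk2a cells and is higher in SST cells.

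The miRNAs whose group means were most like those of miR-204 were found among 365 miRNAs with at least 10 RPM in some group, by Pearson correlation of log2 level over the 7 groups. They were miR-26a (r = 0.97), miR-497 (0.90), miR-195 (0.88), miR-374 (0.88), miR-125a-5p (0.87), let-7e* (0.85), miR-26b (0.84) and miR-101a (0.84). Ranked over the 19 libraries instead, 7 of these 8 were again among the first 8, and let-7e* was the 21st. The ranges differed widely: miR-26a went from 56593 ± 3167 RPM in Cerebellum to 16432 ± 2851 in PV cells, whereas miR-497, processed from the same transcript as miR-195, went from 4676 ± 415 in Cerebellum to 26.1 ± 2.64 in Purkinje cells. miR-497 and miR-195 were, like miR-204, highest in Cerebellum and low in Purkinje cells. PV cells, however, held 159 ± 7.90 RPM of miR-497 and 313 ± 47.6 RPM of miR-195, above their Purkinje levels.

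**Figure D5:**
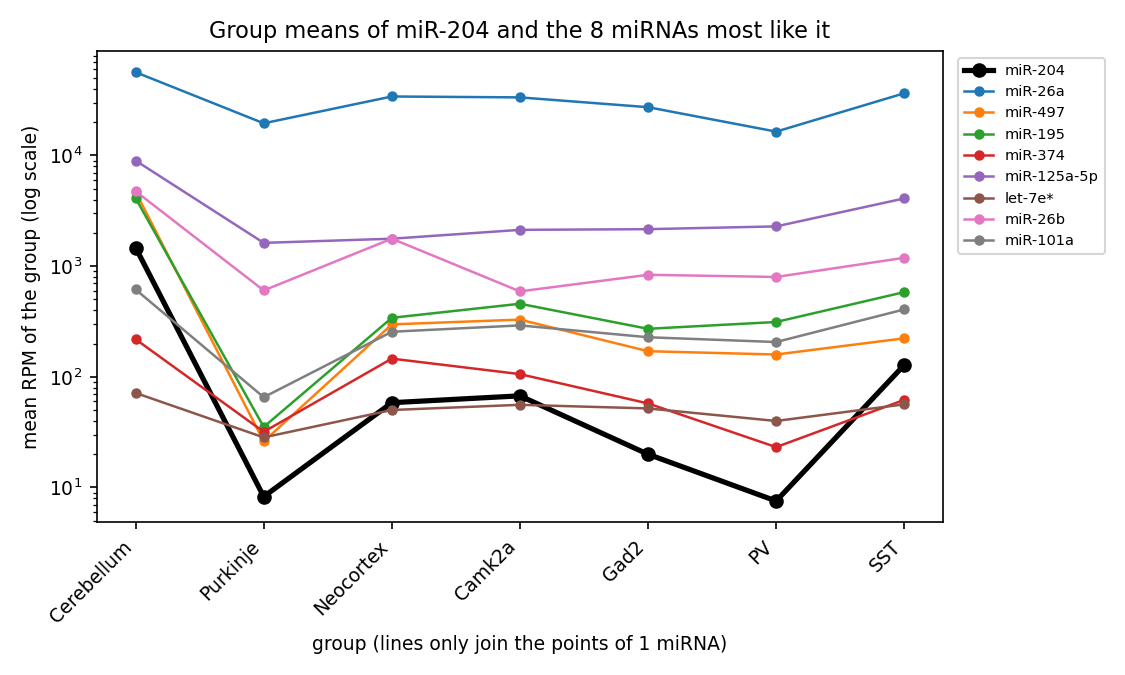
Group means in RPM on a log axis for miR-204 (black) and the 8 miRNAs of highest correlation with it, over the 7 groups, where lines only join the points of 1 miRNA. All 9 are highest in Cerebellum, and miR-204 is 16.8-fold lower in PV than in SST cells.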

How the data were processed

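Small RNAs bound to Ago2 were sequenced on an Illumina Genome Analyzer II, per the labels' protocols. Mapping used Bowtie (version not given in the sources used here) and mm9, per the submitters' processing notes. The deposited signal of each of 528 names is a read count that the authors scaled to a common total: per the file headers, per 1000000 miRNA reads, although every column adds up to 10000000. RPM is the deposited value divided by 10. Whole reads were recovered from the deposited steps, and at least 99.8% of values in each library came out whole within 0.0051 on the deposited scale.

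Libraries were grouped by title, and all 7 groups entered 1 fit in limma 3.58.1 (R 4.3.3) with a trend on log2(deposited value + 1). A deposited value of 1 or more in 2 libraries was required, which kept 522 miRNAs, and the Benjamini-Hochberg adjustment ran over all of them within each comparison. Changes are on the log2(value + 1) scale, which understates those of low miRNAs. Folds of levels are 2 to the power of the fitted change, and a miRNA was called at an adjusted p under 0.05. Arm ratios used recovered reads of 156 hairpins with at least 20 reads in 2 libraries and a mean of 5 per arm. edgeR 4.0.16 and DESeq2 1.42.0 on the recovered reads, TMM scaling, other pseudocounts and filters, a replicate block and leaving out each library were alternatives. Scripts were tested on simulated data.

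The members, the marker lists and the rule for like miRNAs were chosen with earlier results of these data known. The 5 comparisons of Cerebellum with SST, SST with Camk2a, Purkinje with PV, and SST and PV with Gad2 cells, and the tests between tissues, were added after values were seen. Named miRNAs are the members, their seed relatives, the 8 most like miR-204 and up to 3 of highest level per marker list. miR-34b-3p, miR-34c*, miR-9* and miR-124* were named after their values were seen, as were the 8 most like miR-204*. Libraries of the same group varied beyond counting error (chi-square per degree of freedom 34.2 to 693 over 17 pairs).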

Additional observations from a re-analysis of the deposited data

Results flagged for a closer look

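The difference between tagged cells and their tissue was not the same in cerebellum and neocortex, tested as the change of Purkinje cells against Cerebellum minus the change of a neocortical class against Neocortex. For miR-204 this log2 difference was -7.74 with Camk2a cells (limma, adjusted p = 4.41e-12), -5.99 with Gad2 cells (3.08e-10), -4.62 with PV cells (2.52e-08) and -8.69 with SST cells (1.91e-12). Of all miRNAs, 47.3%, 45.8%, 45.8% and 44.6% were called in these 4 tests, which share the Purkinje, Cerebellum and Neocortex libraries. miR-204 was therefore lower relative to tissue in Purkinje cells than in each neocortical class. With PV cells this restates the change of Cerebellum against Neocortex (log2 change 4.65), since Purkinje and PV cells themselves differed by 0.03.

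For miR-204* the log2 difference was -4.47 with Camk2a cells (limma, adjusted p = 2.93e-06), -3.44 with Gad2 cells (6.69e-05) and -4.29 with SST cells (1.06e-05), which a pseudocount of 10 moved to -3.52, -2.68 and -3.37 with the calls kept. With PV cells it was -0.45 and missed the threshold (limma, adjusted p = 0.608), and both classes were at or under 3 reads of miR-204* per library. The arm ratio went the other way, because star over guide was lower in the neocortical classes than in Neocortex and not in Purkinje cells. Its log2 difference was 3.41 with Camk2a cells (limma, adjusted p = 0.000263), 2.69 with Gad2 cells (0.00206), 4.52 with PV cells (3.17e-05) and 4.47 with SST cells (2.46e-05). Each of these tests includes the arm-ratio difference of Cerebellum against Neocortex (-3.05). With Gad2 cells the test mostly restates it, since Purkinje and Gad2 cells themselves differed by -0.36. The Purkinje side rests on 6 star reads.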

How the results depend on the processing

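No called value changed direction under any alternative. Of the planned comparisons, all 122 alternative values for miR-204 kept their side of the threshold, 116 of 122 did for miR-204*, 66 of 68 for the arm ratio and 14 of 14 for the test of any difference. miR-204* in Gad2 against Camk2a cells was -1.03 (adjusted p = 0.0625) and passed with a pseudocount of 10 (-0.84, 0.0262), TMM scaling (-1.12, 0.0381), edgeR (-1.11, 0.00391), DESeq2 (-1.21, 0.000164) and only these 2 groups (-1.03, 0.0154). With each library left out it ran from -1.27 to -0.88 and passed without Gad2 replicate 3 (0.0432). The arm ratio of Purkinje cells against Cerebellum passed with 1 read added per arm (1.21, 0.0140), and ran from 0.78 to 1.24 with each library left out, passing without Cerebellum replicate 2 (0.0272).

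Of the added comparisons, miR-204 in SST against Camk2a cells lost its call with TMM scaling (0.30, 0.44), edgeR (0.27, 0.413) and DESeq2 (0.32, 0.349), and ran from 0.75 to 1.08 with each library left out. miR-204* in Purkinje against PV cells, both at or under 3 reads, had a fitted log2 difference of 1.15 (0.0546), not read as a fold. It passed with a minimum of 10 (1.15, 0.0466) and TMM scaling (1.25, 0.0316), and ran from 0.69 to 1.68 with each library left out, passing without Purkinje replicate 3 (0.00245). The miR-204* difference between Purkinje and PV effects passed with a pseudocount of 10 (-1.07, 0.0474). The cause was not tested.

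A pseudocount of 10 moved called miR-204* changes by over 1.5 times: to -5.61 for Purkinje against Cerebellum, -4.54 for PV against Neocortex, -2.29 for PV against SST, -1.11 for Purkinje against Gad2 and -1.61 for PV against Gad2 cells, and to -3.52, -2.68 and -3.37 for the differences between Purkinje effects and those of Camk2a, Gad2 and SST cells. TMM scaling, a per-library factor from edgeR, moved Cerebellum against SST cells to 4.23 for miR-204 and 4.72 for miR-204*, and miR-204* in PV against SST cells to -3.24. It moved the share of calls that were higher from 35.2% to 46.4% for Cerebellum and from 37.6% to 50.9% for Camk2a, and from 59.1% to 44.8% for SST, each against Neocortex. The median log2 change of all miRNAs moved with it, from -0.40 to -0.17, -0.25 to -0.04 and 0.13 to -0.20 there, and from -0.42 to 0.11 for PV against SST cells. For Purkinje against Gad2 cells higher calls rose from 37.3% to 50.7% of all calls in DESeq2. Calls over all miRNAs for SST against Gad2 cells went from 144 to 87 with TMM scaling and 83 without SST replicate 1. Without PV replicate 1 they went from 152 to 94 for PV against SST and from 111 to 73 for PV against Gad2 cells.

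No pairing by replicate number was seen: deviations of same-numbered libraries correlated over 0.1 in 7 of 52 pairs, against 12 of 102 for different numbers. This check cannot exclude pairing, because deviations from the mean of a small group are tied to each other. With the replicate block, miR-204 changed by 4.65 for Cerebellum against Neocortex (2.86e-10), and the only call it changed was miR-204* in Purkinje against PV cells (1.26, 0.0457). miR-204* rests on 6 reads over each of the Purkinje and PV groups, in PV cells from libraries of 10739153 and 11438142 reads.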

Other observations

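The miRNAs most like miR-204* over the 7 group means, a ranking added after values were seen, were miR-374 (Pearson r = 0.98), miR-126-3p (0.95), miR-26a (0.94), miR-99a (0.92), miR-126-5p (0.92), let-7b (0.91), let-7c (0.90) and miR-135b (0.89). miR-374 and miR-26a were also among the 8 most like the guide. miR-99a, let-7b, let-7c, miR-135b and both arms of miR-126, an endothelial miRNA, were not. The vascular miR-143 was not among the 8 most like miR-204*. miR-374 had 218 ± 32.3 RPM in Cerebellum, 146 ± 66.5 in Neocortex and 106 ± 6.54 in Camk2a cells. miR-126-3p had 2882 ± 161 RPM in Cerebellum, 2656 ± 571 in Neocortex and 689 ± 30.4 in Camk2a cells, and miR-126-5p had 1386 ± 154, 1001 ± 300 and 216 ± 65.9 RPM. These correlations are over groups that share scaling and carry no test.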
